A study of Hydra vulgaris with 32 samples.

Results

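The 127 loci described here were lost from the body column of the freshwater polyp Hydra after each of 3 treatments. After hydroxyurea, the only treatment sampled over time, these loci were already deeply reduced at the first time point, day 4. They were chosen on measured values from 14792 loci of the normalized table. A locus is a group of sequences that carry the same locus number in the authors' identifiers, and its signal is the sum over those sequences. The mean normalized signal had to be at least 130 in untreated animals on both day 4 and day 11. It had to be at most 0.1 times the control day 11 mean after hydroxyurea on day 11, after heat shock and after colchicine, and at most 0.08 times the control day 4 mean after hydroxyurea on day 4. Of the 9867 loci that met the control minimum, 397 met all 3 of the late criteria, and 127 of those also met the day 4 criterion. The other 270 are called the later-lost loci below.

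RNA sequencing of central body columns, without head and foot regions, gave 32 libraries in 10 groups, all from the thermosensitive strain Sf-1, which was not fed once the experiment began. The untreated control groups had been starved for 4, 5 and 7 days (3 libraries each) and 11 days (4 libraries). The hydroxyurea groups were bathed in a 10 mM solution of this drug, which stops DNA replication, for 3 spells of 24 h with 12 h between them, and were sampled 4, 5, 7 and 11 days after the start (3 libraries each). The heat shock group (4 libraries) was kept at 28 °C for 62 h, and the colchicine group (3 libraries) was exposed for 8 h to 0.4% colchicine, which blocks microtubule assembly. Both were sampled 9 days after treatment began and had been starved for 11 days, so they are set beside control day 11. The labels do not say whether replicates came from separate cultures or how many animals each pooled, so p-values measure only the spread between these samples, which may be technical.

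Hydra holds separate stem cell lineages. Interstitial stem cells divide faster than the epithelial stem cells of the ectoderm and endoderm, and they give rise to stinging cells, nerve cells, gland cells and germ cells. Hydroxyurea and colchicine remove cells of the interstitial lineage, and in the sf-1 strain a raised temperature does so as well, while the epithelial cells survive. The files carry no gene names: none of the authors' identifiers matched any of the 28925 annotated Hydra genes at hand (0 matched), so no function is given to any locus here. In such bulk samples, fewer cells of a type and less RNA per cell cannot be told apart.

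Library totals lay between 23.6 and 36.6 M counts in 30 libraries, and colchicine replicates B and C were shallower, down to 13.1 M. Levels below are CPM (a library's counts scaled by its total and a TMM factor), summed over every sequence of a locus. CPM is not corrected for transcript length, which the files do not give, so the order of loci by CPM is an order of reads. Heat shock replicate B stood apart from the other 3 heat shock libraries and was left out of the heat shock mean by the selection. With it in the mean the same 127 loci were selected (127 shared), as they were with colchicine replicate A alone or replicates B and C alone.

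In untreated animals the 127 loci together took between 8197 CPM (control day 7 replicate A) and 10965 CPM (control day 11 replicate D) of a library. On hydroxyurea day 4 they summed to 319, 291 and 216 CPM in replicates A, B and C. On day 11 they summed to 111, 95.3 and 88.2 CPM. Colchicine left 108, 126 and 124 CPM. Heat shock left 116, 209 and 130 CPM in replicates A, C and D and 883 CPM in replicate B. Every treated library lay far below every control library. These groups chose the loci, so their values are a description and were not tested.

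The days 5 and 7 were not used by the selection. On these days the sum was 9542 ± 935 and 9104 ± 822 CPM in the controls (mean ± SD, n = 3 each) and 141 ± 10.2 and 96.6 ± 6.74 CPM after hydroxyurea. That is 1.48% of control on day 5 and 1.06% on day 7. The sum thus lay close to its day 11 share, 1.03%, by day 7. The later-lost loci summed to 24.3% of control on hydroxyurea day 4, 11.5% on day 5, 1.80% on day 7 and 1.40% on day 11.

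**Figure D1:**
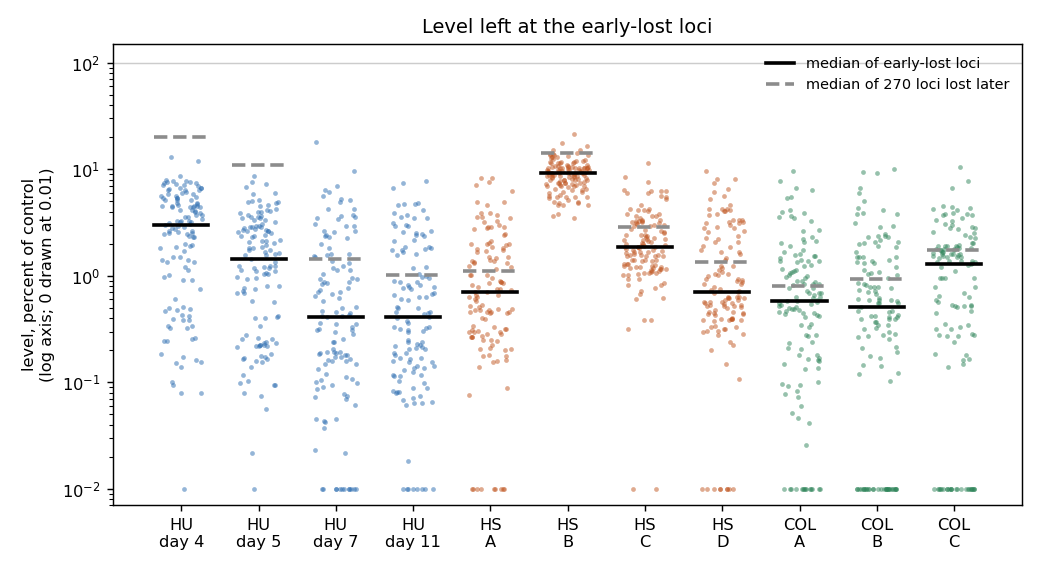
Level left at each of the 127 loci (points) as percent of the control mean of the same day (HU, hydroxyurea, group means) or of control day 11 (HS, heat shock; COL, colchicine; single libraries), on a log axis with values of 0 drawn at the bottom. Black bars are medians of the 127 loci and dashed grey bars medians of the 270 later-lost loci; the medians of the 127 loci run from 3.00% on hydroxyurea day 4 to 0.408% on day 11, and heat shock replicate B lies apart with a median of 9.13%.

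Every locus was lower after hydroxyurea on both days. The loss was tested with edgeR's quasi-likelihood F-test on the 12 libraries of days 5 and 7, with Benjamini-Hochberg adjustment over all 16116 loci tested. All 127 loci passed the filter on low counts, which their control level alone would allow. On day 5 the test called 127 of 127 lower, against 18.5% of all loci tested, with a median log2 fold change of -6.00 (range -12.03 to -3.51) and a largest adjusted p of 0.000323. On day 7 it called 127 of 127 lower, against 22.1% of all loci, with a median of -7.97 (range -13.09 to -2.49) and a largest adjusted p of 9.05e-05. At 21 loci on day 5 and 54 on day 7, every hydroxyurea library held 3 counts or fewer. Their fold changes are fitted values that depend on the prior count, and the medians and ranges given here include them. The hydroxyurea libraries lay below all control libraries of the same day at 127 loci on day 5 (23.3% of all loci tested) and at 127 on day 7 (24.9% of all loci tested). The selection on day 4 and day 11 made such calls likely, so they show only that the loss held on the days in between. Over all loci tested, the corresponding medians were 0.00 (day 5) and -0.02 (day 7) on the log2 scale.

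The loci differed widely in how much was left. Averaged over days 5 and 7, control levels ran from 3.88 to 727 CPM with a median of 29.4, and the hydroxyurea level ran from 0.0226% to 12.2% of control with a median of 1.03%. At 62 loci less than 1% was left, and at 6 loci more than 5%. Counts of 3 or fewer in each of the 3 hydroxyurea libraries, taken as the floor of detection, were found at 12 loci on day 4, 21 on day 5, 54 on day 7 and 48 on day 11. At 20 loci this held on both day 5 and day 7. A fold change of such a locus is given below only as a bound, against 3 counts in the shallowest treated library.

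A group of 8 loci held 41.5% of the control reads of the whole set. The one with the most reads was loc16087, with 646, 822 and 782 CPM in the control libraries of day 5 and 627, 746 and 740 CPM on day 7. After hydroxyurea it read 57.5, 51.8 and 33.0 CPM on day 4, 6.19, 5.43 and 3.76 CPM on day 5, 0.446, 0.615 and 0.236 CPM on day 7 and 0.760, 0.877 and 0.245 CPM on day 11. Day 5 lay wholly below day 4 and day 7 wholly below day 5, while day 11 overlapped day 7. Its log2 fold change was -7.19 (SE 0.204, adjusted p = 5.23e-11, edgeR) on day 5 and -10.70 (SE 0.255, adjusted p = 8.21e-12) on day 7.

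The locus loc17366 was already near its final level on day 4. Its control libraries held 433, 548 and 460 CPM on day 5 and 431, 559 and 497 CPM on day 7. After hydroxyurea it read 0.305, 0.731 and 0.104 CPM on day 4, 0.229, 0.678 and 0.162 CPM on day 5 and 0.474, 0.451 and 0.236 CPM on day 7. The 3 hydroxyurea days overlapped, and its log2 fold changes of -10.49 (SE 0.285) on day 5 and -10.31 (SE 0.281) on day 7 did not differ by the test (difference 0.18, SE 0.480, adjusted p = 0.918, edgeR). Its neighbour by number, loc17365, held 419, 515 and 432 CPM in controls and 0.660, 1.36 and 0.389 CPM after hydroxyurea on day 5. On day 7 its log2 fold change was -9.07 (SE 0.267, adjusted p = 6.15e-11, edgeR). Such consecutive locus numbers occurred in 7 pairs of the set, and loc16087 belongs to one of them. What consecutive numbers mean is not given in the sources used here.

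Of the 8, loc09464 kept the largest share on days 5 and 7. It read 476, 479 and 458 CPM in controls of day 5 and 9.72, 8.94 and 7.91 CPM after hydroxyurea. On day 7 the controls held 501, 475 and 458 CPM and the treated libraries 7.22, 7.10 and 8.71 CPM. The treated libraries of days 5 and 7 overlapped. The locus read 12.8, 13.7 and 9.95 CPM on day 4, all above day 5, and 8.29, 6.44 and 7.63 CPM on day 11. Colchicine left 9.57, 11.0 and 11.9 CPM of it. Its log2 fold change was -5.73 (SE 0.114, adjusted p = 3.05e-12, edgeR) on day 5 and -6.00 (SE 0.116, adjusted p = 1.10e-12) on day 7.

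The other loci of the 8 were loc12179, loc22238, loc08628 and loc20088. The first of them, loc12179, held 476, 647 and 593 CPM in controls and 0.975, 1.40 and 0.454 CPM after hydroxyurea on day 5, and 0.223, 0.369 and 0.0394 CPM on day 7. It was lower on day 7 than on day 5 (log2 difference -2.13, SE 0.526, adjusted p = 0.0286, edgeR), with no overlap, while the difference of its effects missed the threshold (adjusted p = 0.0862). The locus loc22238 read 1.63, 2.46 and 0.421 CPM on hydroxyurea day 5 and 1.48, 1.97 and 1.34 CPM on day 7, which overlap. The remaining pair stayed under 1 CPM in all hydroxyurea libraries of days 5 and 7. Their controls on these days held 284 to 355 CPM (loc08628) and 226 to 350.4 CPM (loc20088).

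**Figure D2:**
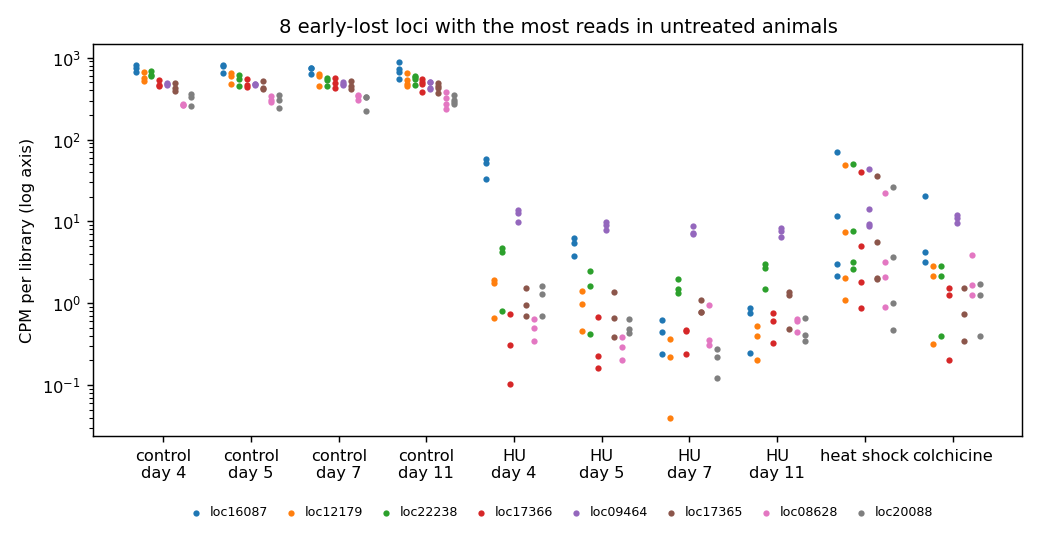
CPM per library (log axis) of the 8 loci with the most reads in controls, by group; each point is 1 library, HU is hydroxyurea, and the heat shock column holds 4 libraries. The controls lie between 226 and 892 CPM, and loc16087 steps down from day 4 to day 7. The locus loc09464 lies at 6.44 to 13.7 CPM after hydroxyurea, and the upper point of each locus in the heat shock column is replicate B.

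At the low end, loc25868, loc05013, loc18685, loc17366 and loc01103 had the smallest share left on days 5 and 7. The locus loc25868 held 67.9, 61.2 and 64.3 CPM in controls of day 5 and 64.0, 56.4 and 55.7 CPM on day 7. After hydroxyurea it read 0, 0.0424 and 0 CPM on day 5 and 0, 0.0410 and 0 CPM on day 7, all at the floor. It was at least 507-fold lower on day 5 and at least 477-fold lower on day 7. By the same measure loc18685 was at least 198-fold lower on day 5 and at least 178-fold on day 7, and loc05013 at least 91.3-fold and 84.0-fold. For these loci the depth of the libraries, not the level itself, sets how low a value can be read.

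At the high end stood loc19198 (12.2% left), loc19208 (6.98%), loc08038 (6.96%), loc23762 (5.39%) and loc20058 (5.37%). The controls of loc19198 averaged 152 CPM on day 4 but 81.6 CPM on day 5 and 47.5 CPM on day 7. Its share left was 5.11% on hydroxyurea day 4, so the 12.2% is a share of a lower control level. The locus loc19208 read 39.9, 45.7 and 45.4 CPM in controls of day 5 and 3.30, 2.92 and 3.79 CPM after hydroxyurea. On day 7 the values were 44.6, 55.9 and 55.1 CPM against 3.68, 3.53 and 2.80 CPM. The treated libraries overlapped between the days and lay well below the controls on both, with log2 fold changes of -3.70 (SE 0.123) and -3.99 (SE 0.124). The single-sequence locus loc20058 behaved alike in its levels: 16.0, 17.0 and 15.9 CPM in controls of day 5 against 0.918, 0.593 and 1.33 CPM, and 14.9, 16.4 and 14.7 CPM on day 7 against 0.891, 0.533 and 0.828 CPM. A low but measurable level thus persisted at both, and the cause was not tested.

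Nearest to the limits of the selection, loc23762 passed with a hydroxyurea day 4 ratio of 0.0795, and loc24891 passed with a control day 11 signal of 131.0. Just outside lay loc01147, with a day 4 ratio of 0.0816, and loc19493, with a control day 11 signal of 126.2. The locus loc01147 read 5.34, 5.22 and 4.43 CPM in controls of day 5 and 0.315, 0.297 and 0.292 CPM after hydroxyurea. The locus loc19493 read 4.68, 4.26 and 6.35 CPM against 0.315, 0.0848 and 0.0973 CPM. Both lay far below control after hydroxyurea, as the loci inside did.

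Between day 5 and day 7 the median share left over the 127 loci went from 1.45% to 0.407% of control. A minority of the loci were called lower by the tests. At the 20 loci that were at the floor on both days a further fall could not be seen. The test of the difference of the hydroxyurea effects called 31 of 127 lower on day 7 (24.4%), against 2.28% of all loci tested, and none (0) higher; 56 passed an unadjusted p of 0.05 in either direction. DESeq2 called 37 lower (2.11% of all loci) and 1 higher (0.506% of all loci). The higher one was loc19198, whose control mean was 81.6 CPM on day 5 and 47.5 CPM on day 7. The direct comparison of hydroxyurea day 7 with hydroxyurea day 5 called 42 of 127 lower (33.1%), against 7.11% of all loci, and none (0) higher. All 31 were among the 42. Treated libraries of day 7 lay below those of day 5 without overlap at 49 loci, against 14.0% of all loci tested, and at all 31 of those called. The 31 loci went from a median of 2.64% of control on day 5 to 0.188% on day 7. For the later-lost loci the same tests called 201 of 270 (74.4%) and 234 of 270 (86.7%). The day 4 criterion separates the sets and left the later-lost loci further to fall, so this is a description, and the difference between the sets was not tested.

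These 2 counts changed with the libraries in the fit, which also changes the filter and the scaling; which of these mattered was not tested. With all 32 libraries, edgeR called 0 of 127 in the difference of effects (0.614% of all loci) and 12 in the direct comparison (1.95% of all loci). With 29 libraries, leaving out heat shock replicate B and colchicine replicates B and C, 28 (1.62% of all loci) and 37 (4.61% of all loci) were called.

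Among the 31, loc08947 had the smallest adjusted p. Its controls held 85.9, 81.5 and 85.7 CPM on day 5 and 79.8, 80.2 and 81.7 CPM on day 7, and its treated libraries 2.78, 1.86 and 2.11 CPM on day 5 and 0.306, 0.287 and 0.276 CPM on day 7. The treated days did not overlap. Its effect grew by a log2 difference of -2.93 (SE 0.214, adjusted p = 3.33e-06, edgeR) from day 5 to day 7.

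The locus loc25032 fell from a measurable level to the floor. It read 1.98, 3.26 and 1.88 CPM on hydroxyurea day 5 and 0.0279, 0.0410 and 0 CPM on day 7, while its controls held 91.8 to 120 CPM on these days. On day 7 it was at least 859-fold below control, and the treated level of day 5 was at least 19.3-fold that of day 7. In loc12689 the treated level went from 2.95, 1.44 and 2.63 CPM to 0.0836, 0.246 and 0.0788 CPM, a difference of effects of -4.31 (SE 0.395, adjusted p = 3.07e-05, edgeR). In loc16087, described above, that difference was -3.51 (SE 0.305, adjusted p = 2.04e-05). In loc24891 the treated level went from 0.574, 0.509 and 0.227 CPM to 0.0557, 0 and 0.0394 CPM, at the floor on day 7 and at least 3.55-fold lower than on day 5. Of the 31 loci, 18 were at the floor on day 7, as were 24 of the 42, so the size of their fall is known only as a lower limit.

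**Figure D3:**
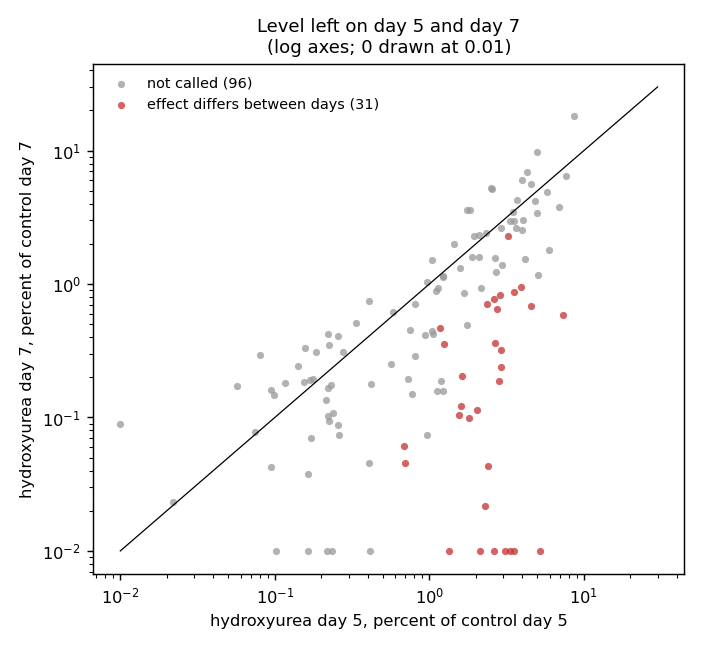
Percent of the same-day control left after hydroxyurea on day 5 (x axis) and day 7 (y axis) for each of the 127 loci, group means on log axes with values of 0 drawn at the lower and left edges. Red points are the 31 loci whose hydroxyurea effect differed between the days by edgeR's test, all below the line of equal values; the other 96 are grey.

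Heat shock replicate B kept more RNA of these loci than any other treated library. Its sum was 9.22% of the control day 11 mean (exact Poisson interval 9.10% to 9.35% for its 21273 counts, counting error only), against 1.21%, 2.18% and 1.36% in replicates A, C and D. It exceeded the other 3 heat shock libraries at 124 of 127 loci, against 29.9% of the 9867 loci with both control means at the minimum. The selection required a low mean in those 3 libraries and left B out, while the 9867 loci were not chosen so. The excess of B over them, here and in the shares below, thus partly restates the selection. It lay below all 4 control day 11 libraries at all 127, against 33.5% of those loci. With 1 library there is no replicate check.

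The share left in this library ran from 3.46% to 21.3% with quartiles of 7.21% and 10.5%, and 117 of 127 loci held over 5%, while 5, 12 and 8 loci did so in replicates A, C and D. In those libraries 38, 18 and 39 loci had counts of 3 or fewer, against 0 in B. The highest were loc14576 (21.3%), loc16141 (17.5%) and loc13861 (16.7%), and the lowest loc20594 (3.46%), loc25547 (3.67%) and loc01103 (3.83%). In loc14576 the 4 heat shock libraries held 1.04, 7.76, 1.22 and 0.819 CPM, and in loc20594 they held 0.112, 1.91, 1.22 and 0.158 CPM. In the first of these B stands alone, and in the other C lies nearer to it. Across the 127 loci the share left in this library had a Spearman correlation of 0.433 with the share left on hydroxyurea day 5 and of 0.0735 with the control CPM, given as descriptions over loci that share libraries. The later-lost loci summed to 14.0% of control in the same library.

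Of the colchicine libraries, replicate C differed from A and B at some loci. In loc16087 it held 20.3 CPM against 3.15 and 4.27 CPM, and in loc12689 it held 4.85 CPM against 0.516 and 0.973 CPM. The reverse held in loc19198, with 0.505 CPM against 9.46 and 9.28 CPM, and in loc19746, with 0.606 CPM against 4.07 and 2.84 CPM. Replicate C is also the shallowest library, and the part of depth in this was not tested.

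Within the loci, most single sequences fell with their sum. The 127 loci hold 449 sequences, with a median of 2 and at most 25 per locus, and 49 loci (38.6%) hold 1 sequence, as do 22.3% of the 9867 loci. Of the sequences, 264 passed the filter on low counts. On day 5, 233 were called lower (11.0% of all sequences tested) and 3 higher (7.59% of all), with 28 not called. On day 7, 242 were called lower (13.7% of all) and 3 higher (8.08% of all), with 19 not called. At 106 loci every tested sequence was called lower on both days. The other 34 sequences were minor ones, at most 6.60 CPM in controls and at most 10.3% of their locus.

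What was left can be split by sequence. Sequences not called lower on both days, untested ones included, held 0.588% of the summed control level of the 127 loci on days 5 and 7 but 23.0% of the summed hydroxyurea level (27.3 of 118.9 CPM). A larger share after treatment follows from splitting by the call, so these values only describe where the remaining reads lay. Such sequences held over 50% of the level left at 15 loci. How reads that match several sequences of a locus were assigned is not given in the sources used here, so values of single sequences are uncertain.

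The clearest case was loc19198, the locus with the largest share left on days 5 and 7. Its main sequence, seq54693_loc19198_tr0603468, held 49.9, 96.1 and 75.1 CPM in controls of day 5 and 0.115, 0.212 and 0 CPM after hydroxyurea. Its sequence seq54695_loc19198_tr0655163 held 7.91, 5.26 and 5.31 CPM in the same controls and 7.20, 6.02 and 7.72 CPM after hydroxyurea, and on day 7 9.74, 5.49 and 5.92 CPM against 9.53, 8.04 and 7.53 CPM. The groups overlapped on both days, with log2 fold changes of 0.17 (SE 0.257, adjusted p = 0.754, edgeR) and 0.19 (SE 0.256, adjusted p = 0.721). This sequence made up 97.7% of what was left at the locus, and its other sequences called lower kept 0.317% of control. It was also present in heat shock at 7.51, 6.02, 4.22 and 7.59 CPM and in colchicine replicates A and B at 9.31 and 9.13 CPM, but at 0.505 CPM in colchicine replicate C. At loc23660, chosen after its values were seen, other sequences made up 90.7% of the level left. They averaged 2.58 CPM in controls of days 5 and 7 and 2.48 CPM after hydroxyurea. At loc08038 other sequences made up 74.7% of the level left, but they went from 1.16 to 0.541 CPM.

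In loc15381 a second sequence was read in treated animals, far below the level its main sequence had in controls. The main sequence, seq41455_loc15381_vl0001260, averaged 170.7 and 169.7 CPM in controls of days 5 and 7 and held 4.70, 5.00 and 2.07 CPM on hydroxyurea day 5 and 0.223, 0.164 and 0.315 CPM on day 7. The second, seq41454_loc15381_vl0001259, was at 0 counts in the 6 controls of these days and at 2.55, 1.91 and 4.21 CPM on hydroxyurea day 5 and 4.51, 4.72 and 3.07 CPM on day 7. It was called higher on both days (adjusted p = 0.000189 and 9.68e-05, edgeR), and no fold is given against controls at 0, where up to 0.130 CPM could go unseen. Over all 32 libraries it was at 0 in 13 of the 14 libraries in which the main sequence exceeded 10 CPM, heat shock replicate B among them, and above 0 in all 18 others (1.46 to 9.13 CPM).

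In loc19746 a pair of sequences was also at 0 in controls and read after hydroxyurea on days 5 and 7, at a lower level. Unlike the second sequence of loc15381, both were at 0 in hydroxyurea day 4 replicate A and in heat shock replicate C. The sequence seq56448_loc19746_tr0589983 was at 0 in every control library and at 0.918, 1.23 and 1.04 CPM on hydroxyurea day 5 and 1.00, 0.903 and 0.749 CPM on day 7 (adjusted p = 0.000428 and 0.000348, edgeR). The sequence seq56449_loc19746_tr0590020 was at 0 in every control library and averaged 0.942 and 0.554 CPM on these days (adjusted p = 0.00641 and 0.00771). The locus as a whole fell to 4.96, 5.09 and 4.51 CPM on day 5, from 87.8, 109 and 103 CPM. These 3 sequences were the only ones of the set called higher, on either day.

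**Figure D4:**
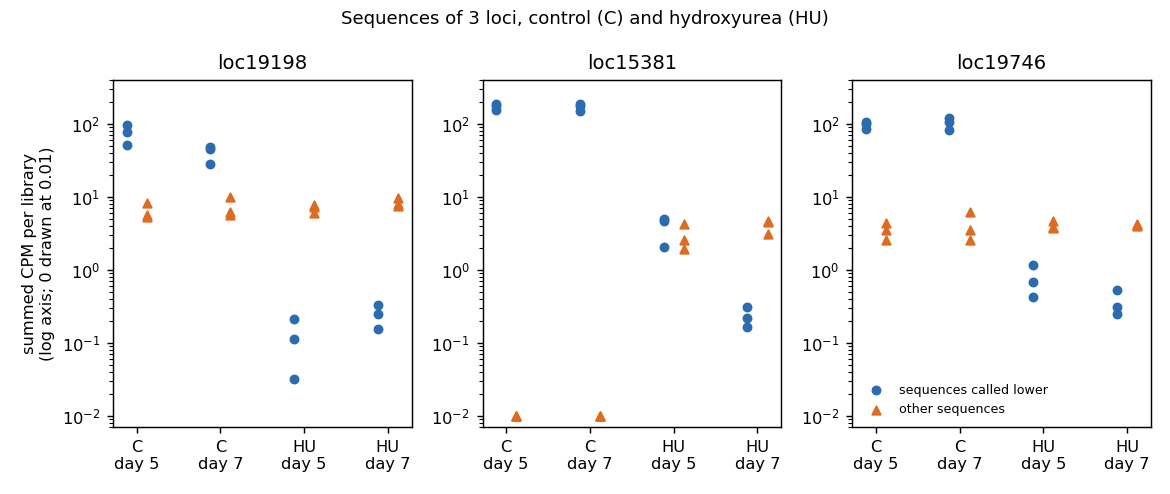
Summed CPM per library (log axis, values of 0 drawn at the bottom) of the sequences called lower on both days (circles) and of all other sequences (triangles) at loc19198, loc15381 and loc19746, in control (C) and hydroxyurea (HU) libraries of days 5 and 7. The circles drop from control to hydroxyurea at each locus, while the triangles stay level at loc19198 and loc19746 and appear only after hydroxyurea at loc15381. At loc19746 the level sum holds opposite changes: seq56448_loc19746_tr0589983 and seq56449_loc19746_tr0590020 rose from 0, and seq56434_loc19746_tr0589944 fell to 0.

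In untreated, starved animals the median level of the loci was 98.1% of control day 4 on day 5, 92.2% on day 7 and 95.9% on day 11. Between control days 5 and 7 the edgeR test called 0 of 127 loci (0% of all loci tested were called). At an unadjusted p under 0.05 there were 13 (5.26% of all loci tested). DESeq2 called 1 of 127, loc19198 (0.135% of all loci). All 3 same-letter pairs of these control groups deviated together (correlations of 0.454, 0.144 and 0.168). A different-letter pair, replicate B of day 5 with C of day 7, reached 0.179. The other different-letter pairs lay between -0.318 and 0.06135. With the replicate letter as a block edgeR called 3 of 127 lower, loc01103, loc04261 and loc22262, against 10 of all loci in either direction (0.0621%).

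A subset of 11 loci, singled out after their values were seen and not tested, dipped in the controls. On day 7 their mean lay between 14.5% and 41.9% of control day 4, while the next locus stood at 65.0%. They make up 8.66% of the 127 loci, and a control day 7 level under 50% of day 4 was found at 0.385% of the 9867 loci. They were loc01103, loc04261, loc22262, loc01906, loc07259, loc20594, loc19198, loc25547, loc17919, loc23660 and loc03810. On day 5 they stood at 43.4% to 64.0% of day 4, and on day 11 they were back at 49.2% to 81.7%, above day 7 in all 11. The control sum of the later-lost loci was also lower on day 7 than on day 4 (26924 against 32996 CPM). For the 127 loci together it was 9104 against 10247 CPM.

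Replicates differed in how deep the dip was. In loc01103 the controls held 170, 162 and 138 CPM on day 4, 44.6, 97.4 and 61.6 CPM on day 5, 16.2, 27.8 and 24.0 CPM on day 7, and 63.4, 108, 64.5 and 72.5 CPM on day 11. In loc20594 they held 93.5, 102 and 81.7 CPM on day 4, 37.8, 68.5 and 54.4 CPM on day 5, 21.8, 32.0 and 32.0 CPM on day 7, and 48.8, 67.3, 49.8 and 55.0 CPM on day 11. At both, day 7 lay wholly below the other days. Replicate A was the lowest control library at all 11 loci on day 5 and on day 7, as it was at 67.7% and 68.5% of the 127 loci and at 58.1% and 64.3% of the 9867 loci. Replicate B was the highest on day 11 at all 11, at 11.8% of the 127 and at 13.7% of the 9867. Without replicate A, day 7 stood at 17.3% to 46.2% of day 4 at the 11 loci, and without replicate B day 11 stood at 42.6% to 75.2%.

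After hydroxyurea the share left at these 11 loci ran from 0.0766% in loc01103 to 12.2% in loc19198 on days 5 and 7. Their controls were lower on these days than on day 4, which makes the same treated level a larger share. On hydroxyurea day 4 the share left was 0.321% in loc01103 and 5.11% in loc19198. In heat shock replicate B they held 3.46% to 10.6% of control day 11 with a median of 5.48%, and 9 of the 11 lay under the lower quartile of the 127 loci, 7.21%. The 3 lowest loci of that library, loc20594, loc25547 and loc01103, are all among them.

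**Figure D5:**
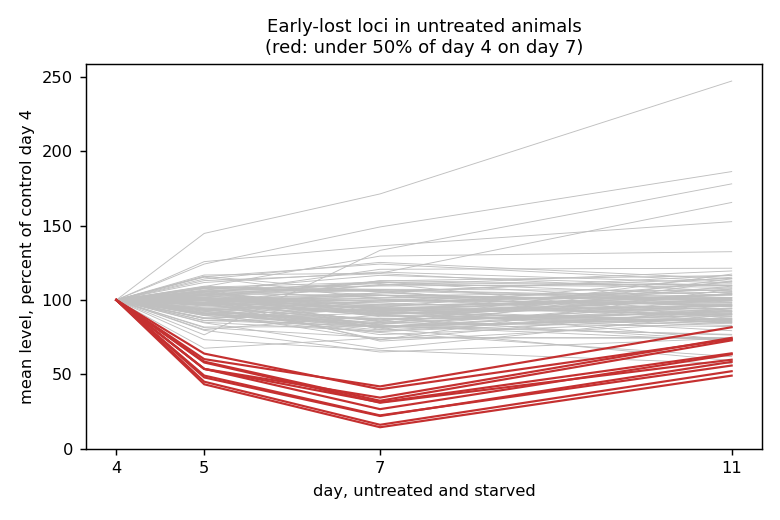
Mean level of each of the 127 loci in untreated animals on days 4, 5, 7 and 11 as percent of its control day 4 mean (3, 3, 3 and 4 libraries), without error bars. Red lines are the 11 loci under 50% on day 7, which lie between 14.5% and 41.9% there and higher again on day 11.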

How the data were processed

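The loci and all lists were chosen with earlier results of these data known. PolyA RNA of central body columns was sequenced from directional TruSeq libraries, per the labels' protocols. The authors deposited a table of whole-number counts for 79774 sequences at 25879 loci, and a table of normalized signal for 31594 of them, each column of which equals the deposited count times 1 constant per library (0.669 to 2.80). The submitters' processing notes name cutadapt 1.11, Salmon 0.7.2 and DESeq2 without their roles; the counts may therefore be rounded estimates, and the sequence set and use of strand are not given in the sources used here. Titles give days lower by 1 than the labels for control and hydroxyurea groups, and the label days are used.

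The signal table served only to select loci. Selection from TMM-scaled counts of all sequences gave 125 loci, 124 of them shared. On that scale single loci can lie above the limits of the selection (up to 13.1% on hydroxyurea day 4), since it is another scaling over more sequences. Counts of all sequences were summed per locus and tested with edgeR 4.0.16 (R 4.3.3; TMM, filterByExpr, robust quasi-likelihood F-test, Benjamini-Hochberg, 0.05) on the 12 libraries of days 5 and 7, which leave 8 residual degrees of freedom and hold 23.6 to 34.4 M counts each; 3 counts are 0.0725 to 0.130 CPM there. The SE beside an edgeR log2 value is the absolute log2 value divided by the square root of the test's F statistic. It was not estimated separately, so it is approximate. TMM factors over the 32 libraries were 0.758 to 1.20. The procedure was tested on simulated data. Alternatives were DESeq2 1.42.0, other scaling, other filters, fits with other libraries, a replicate block, and each replicate left out.

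Loci are named by rule: the 8 with the most control reads, the 5 with the smallest and 5 with the largest share left, up to 4 called per direction between days 5 and 7, the 3 highest and 3 lowest in heat shock replicate B, up to 4 with a sequence called higher or not lower, and the 2 nearest inside and 2 nearest outside the limits. Others are said to be chosen after their values were seen. No sequences are shown, since no reference at hand holds these identifiers.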

Additional observations from a re-analysis of the deposited data

Results flagged for a closer look

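In groups of 4 libraries, 58 levels (the sum and the named loci, in heat shock and control day 11) were searched for a library far from the other 3, and 20 had one, 19 of them in heat shock. Chance alone gives about 1 in 20 for independent levels, but these share libraries. The selection left out heat shock replicate B and required low values in the other 3, and some loci were named for their level in B, so the heat shock entries restate the selection and add no support.

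All 19 were heat shock replicate B, above the other 3 libraries. The sum over the 127 loci was 883 CPM there. Among the loci with the most reads it held 69.9 CPM of loc16087, 48.3 of loc12179, 49.9 of loc22238, 40.6 of loc17366, 43.3 of loc09464, 35.6 of loc17365, 22.5 of loc08628 and 26.1 of loc20088. Of the others it held 1.33 CPM of loc18685, 7.18 of loc08947, 10.6 of loc25032, 10.1 of loc12689, 7.76 of loc14576, 0.913 of loc13861, 0.415 of loc25547, 19.7 of loc15381, 13.3 of loc19746 and 0.705 of loc24891. The remaining one was loc20058 in control day 11 replicate C, lowest of its group with 13.5 CPM.

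The hydroxyurea effect differed between days 5 and 7, by edgeR's test of the difference, at 5 of the named loci. The log2 difference was -3.51 in loc16087, -2.93 in loc08947, -4.31 in loc12689, -6.47 in loc25032 and -3.38 in loc24891. The last 2 were at the floor on day 7, so their values are fitted and depend on the prior count.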

How the results depend on the processing

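All 127 loci were called lower on both days under every alternative run. Of 217 alternative values for counts and sums, 204 kept their direction and size within the limits set. All 1064 for the fold changes of 28 named loci kept their direction and their call by the test, and no limit was set on their size. The exceptions follow, and where no construction shows it the cause was not tested. With all 32 libraries in the fit, 0 of the 127 loci (31 in the 12 libraries) and 105 of all loci (367) were called in the difference of effects, and 12 (42) and 334 (1146) were lower on hydroxyurea day 7 than on day 5. Leaving out 1 library at a time gave 22 to 33 and 33 to 45 of the 127 loci lower. Of all loci it gave 573 to 1065 lower on hydroxyurea day 7 than on day 5. That was 573 without hydroxyurea day 7 replicate B, 703 without replicate A of that day and 754 without hydroxyurea day 5 replicate A. Without hydroxyurea day 7 replicate B, 1 of the 127 was called higher in each comparison (29 and 99 of all loci). Without control day 5 replicate A, 1 was called higher in the difference of effects (57 of all loci). Between control days, DESeq2 called 1 of the 127. The sum in heat shock replicate B was 8.85% of control with the scaling of the normalized table and 8.19% with the library total alone.

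Over all 4 groups, replicate letters did not pair the libraries by the limit set: 12 of 18 same-letter pairs correlated over 0.1 (median 0.144), and 8 of 12 libraries correlated best with their own letter, a hint from the data only. Every same-letter pair correlated over 0.1 between control days 5 and 7, and between control and hydroxyurea on day 7. The same held between control day 5 and hydroxyurea day 7 (0.353, 0.103 and 0.111). With a replicate block, 32 of the 127 were called in the difference of effects and 43 between the hydroxyurea days, against 605 and 1742 of all loci, and 127 on either day against control. Between control days the block called 3 of the 127 (10 of all loci). Depth limits what can be said of loci at 3 counts or fewer, where only bounds hold. The fit with 29 libraries and the scalings of the sums were added after seeing the data.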
